A study of Drosophila melanogaster with 4 samples.

Results

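The 261 transcripts described here were dim in Kc cells and bright in Mbn2 cells, out of 15634 transcripts measured on the arrays. Dim means a mean log2 value under 6 over the arrays of a line, and bright means a mean over 8; a transcript was a member when its Kc mean was under 6 and its Mbn2 mean over 8. The series compared 2 established cell lines of *Drosophila melanogaster*, Mbn2 and Kc, with 2 replicates per line, each hybridised with Cy3 to 1 NimbleGen array. Neither line carried an experimental treatment, and the labels do not say whether replicates were separate cultures, so the spread between them may be technical. Mbn2 cells were kept in a medium with fetal calf serum and Kc cells in a serum-free medium, and line and medium cannot be told apart. The values describe these cultures and not a tissue of the fly.

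Mbn2 cells derive from the blood cells, or haemocytes, of larvae carrying the tumour mutation l(2)mbn, and Kc cells derive from dissociated embryos. Cultured lines each keep only part of the gene activity of the animal, so that genes switched on in one line are often off in another. In *Drosophila*, genes that lie next to each other are often transcribed in the same cells, and many gene families stand as tandem copies made by local duplication. The haemocyte character of Mbn2 could not be checked, because none of the 14 haemocyte marker genes looked for (0 of 14) could be paired with a row.

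The values are the authors' log2 RMA expression values, 1 per transcript and array. RMA, the robust multi-array average, as usually run subtracts background, gives every array the same distribution and summarises the probes of a transcript. The files give no level for an absent transcript, so a dim value shows only weak signal; nothing here shows that the members were silent in Kc. Because the floor of the dim values is unknown, differences are given between RMA values and no fold is stated for a member. Probes of different transcripts also respond differently, so the value of one transcript was not ranked against that of another as an amount of RNA. Fewer expressing cells and less RNA per cell cannot be told apart in these cultures. No member has a gene name: the reference table paired 44 rows with genes, and 0 of these 44 were members. Members are therefore called by their FlyBase transcript identifiers. No probe, promoter or protein sequence was used.

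The rule caps Kc means at 6 and leaves Mbn2 means open above 8. Under it, the members spanned a wide range in Mbn2 and a narrow range in Kc. In Mbn2 replicate 1 their lowest, median and highest values were 7.76, 9.80 and 14.57, and in Mbn2 replicate 2 they were 7.48, 9.81 and 14.54. In Kc replicate 1 they were 4.26, 5.34 and 6.28, and in Kc replicate 2 they were 3.93, 5.36 and 6.22. The lowest Mbn2 value of any member lay above the highest Kc value of any member, a separation that largely follows from the rule. For the 193 transcripts bright in Kc and dim in Mbn2, Kc means ran from 8.001 to 14.92 and Mbn2 means from 4.51 to 5.99. Of the 261, 88 had an Mbn2 mean between 8 and 9, 55 between 9 and 10, 62 between 10 and 11, 33 between 11 and 12, and 23 above 12. In Kc, 61 members had a mean under 5, 94 a mean from 5 to 5.5 and 106 a mean from 5.5 to 6. The Kc means of members had a median of 5.37, and the Kc means of the 4586 transcripts dim in both lines had a median of 5.11.

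**Figure D1:**
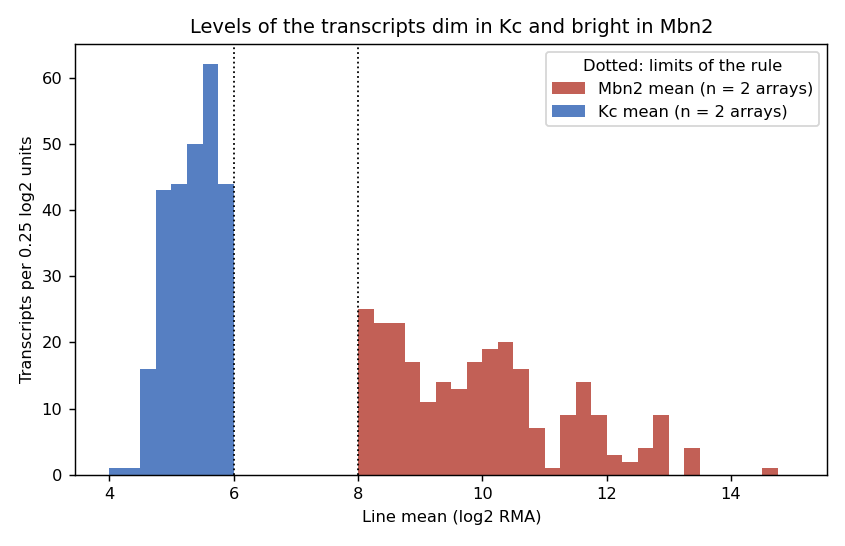
Histogram of the mean log2 RMA value of the 261 members in Mbn2 (red) and Kc (blue), in bins of 0.25 log2 units, with the limits of 6 and 8 dotted. The Kc means fill a narrow band below 6, with a median of 5.37, and the Mbn2 means trail from 8.004 to 14.55. The rule set the gap between the limits and favours a narrow Kc band.

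The difference between the lines, Mbn2 minus Kc, chose the members and is given as a description. It ran from 2.16 to 8.77 log2 units over the members with a median of 4.37, against a median of -0.05 over all 15634 transcripts. A difference over 3 was held by 226 members, over 5 by 94 and over 7 by 20. All 261 members had an adjusted p under 0.05 for a higher level in Mbn2 (limma), as had 21.2% of all transcripts. In all 261 both Mbn2 arrays also lay above both Kc arrays, as in 32.0% of all transcripts. Both counts follow from the rule, and nothing is read from them.

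The member with values farthest apart was FBtr0077467, which read 14.57 and 14.54 in the Mbn2 replicates, against 5.79 and 5.77 in the Kc replicates. Its difference was 8.77 log2 units, and the replicates of each line differed by 0.03 in Mbn2 and 0.01 in Kc. FBtr0076525 read 13.27 and 13.72 in Mbn2 and 5.16 and 5.23 in Kc, a difference of 8.30. Its Mbn2 replicates lay 0.46 apart, a small part of the gap between the lines. FBtr0089119 read 13.24 and 13.45 in Mbn2 and 5.04 and 5.29 in Kc (difference 8.18). FBtr0089116, which stands only 2 rows away from it in identifier order, read 13.28 and 13.57 in Mbn2 and 5.33 and 5.22 in Kc (difference 8.15). These last 2 belong to 1 run of members described below.

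The other members among the 10 farthest apart had differences from 7.89 to 8.02. FBtr0082093 read 12.65 and 12.89 in Mbn2 and 4.81 and 4.68 in Kc. FBtr0077422 read 12.91 and 12.87 in Mbn2 and 4.90 and 4.84 in Kc. FBtr0079506 read 12.51 and 12.67 in Mbn2 and 4.68 and 4.60 in Kc. In all 3 the replicates of a line lay within 0.24 of each other. FBtr0077377 read 12.92 and 12.85 in Mbn2, while its Kc replicates, at 4.70 and 5.18, were the least alike of the 10. FBtr0086980 read 12.51 and 12.71 in Mbn2 and 4.69 and 4.72 in Kc. FBtr0075671 read 12.97 and 12.94 in Mbn2 and 5.17 and 4.98 in Kc, and its nearest fellow member was 101 rows away. Of these 10, 6 had a member in the row directly before or after them. FBtr0070606, named for its Mbn2 value, read 13.23 and 13.50 in Mbn2 and 5.98 in both Kc replicates, which puts it just under the Kc limit.

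**Figure D2:**
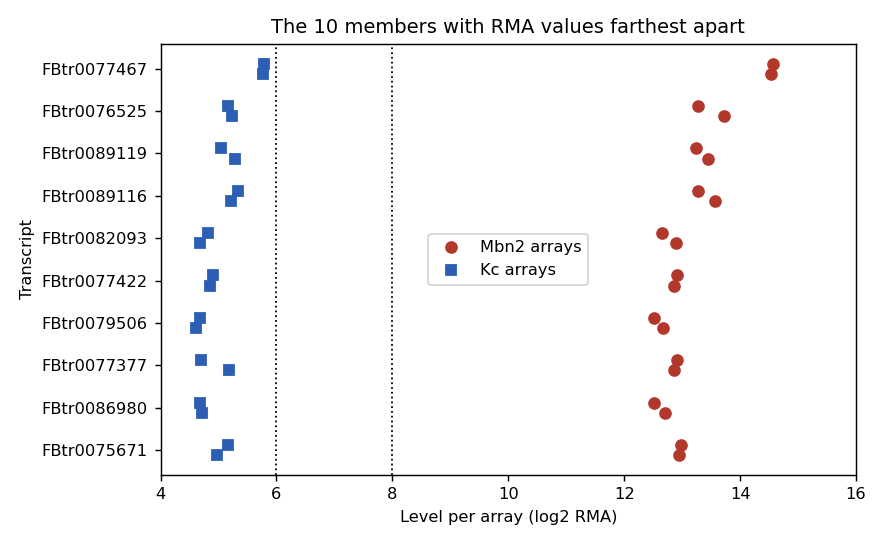
Log2 RMA value on each array for the 10 members with the largest difference, with Mbn2 arrays as red circles and Kc arrays as blue squares, and the limits of 6 and 8 dotted. The Mbn2 values lie between 12.51 and 14.57 and the Kc values between 4.60 and 5.79, and replicates of a line nearly coincide in most rows.

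At the limits, members and other transcripts lay within a few hundredths of a log2 unit of each other. Just under the Kc limit were FBtr0091449, with a Kc mean of 5.996, FBtr0082472 at 5.99 and FBtr0070606 at 5.98, and just over it were FBtr0071413, FBtr0081228 and FBtr0071866, at 6.01, 6.01 and 6.02. FBtr0081228 read 11.54 and 11.45 in Mbn2 and 5.95 and 6.08 in Kc, so a transcript with a difference of 5.48 stayed outside. Just over the Mbn2 limit were FBtr0089170, FBtr0100408 and FBtr0071036, with Mbn2 means of 8.004, 8.02 and 8.02, and just under it FBtr0072967, FBtr0082682 and FBtr0077974 at 7.99, 7.97 and 7.95. Of the 261 members, 222 (85.1%) had every array past its limit. In 23 a Kc array was at or over 6, and in 17 an Mbn2 array was at or under 8.

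Transcripts were also chosen on the arrays of a single replicate number and read on the remaining arrays. The limits were chosen with earlier results of these data known, and replicates may be technical, so this is not an independent check. A higher level in Mbn2 on the remaining arrays was also likely beforehand, because the limits lie far apart beside the spread between replicates. When transcripts were chosen on the arrays of replicate 1 alone, 257 passed the limits, and 222 of these (86.4%) also passed them on the arrays of replicate 2. All 257 were higher in Mbn2 than in Kc on replicate 2, the smallest difference being 1.42 (FBtr0071542). When they were chosen on replicate 2, 266 passed, of which 222 (83.5%) passed on replicate 1, and all 266 were higher in Mbn2 there, by at least 1.65. The median difference of the 257 was 4.34 on the arrays not used and 4.39 on those used, and that of the 266 was 4.30 and 4.33. Among transcripts that failed on the other arrays, the highest Kc value was 7.13 and the lowest Mbn2 value 7.31. Whether the authors normalized all arrays together, in which case the 2 sets of arrays are not fully separate, is not stated in the labels or files.

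Members varied more between the Mbn2 replicates than other transcripts of the same level did. The median absolute difference between the Mbn2 replicates was 0.20 log2 units over the members and 0.12 over all transcripts. Over other transcripts with an Mbn2 mean within 0.25 of each member's it was 0.11 at the median, and 182 of 261 members (69.7%) exceeded the value matched to them. The excess held in each level range. The median absolute replicate difference was 0.22 for the 88 members with Mbn2 means from 8 to 9, against 0.16 for 908 other transcripts there. It was 0.17 for the 23 members above 12, against 0.087 for 2424 others. In Kc, where members were dim, the median absolute replicate difference was 0.18 over members and 0.20 over other transcripts of the same level. No test was made of these differences, since transcripts on the same arrays are not independent.

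The 193 transcripts of the opposite pattern, bright in Kc and dim in Mbn2, varied likewise in the line where they were bright. Their median absolute difference between the Kc replicates was 0.19, against 0.14 for other transcripts of the same Kc level. Among the 261 members, 159 (60.9%) were higher in Mbn2 replicate 2 than in replicate 1, as were 46.5% of the transcripts bright in both lines. The median shift of members from replicate 1 to replicate 2 was 0.10 log2 units, small beside the difference between the lines.

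The 5 members with the least alike replicates were all least alike in Mbn2. FBtr0080592 read 9.52 and 10.71 in Mbn2 and 5.17 and 5.87 in Kc. FBtr0074992 read 7.87 and 9.06 in Mbn2 and 5.39 and 5.45 in Kc. FBtr0100290 read 8.72 and 9.86 in Mbn2 and 5.39 and 5.64 in Kc. Each of these was above 1 log2 unit apart in Mbn2, yet both Mbn2 arrays stayed above both Kc arrays. FBtr0083783 was higher in Mbn2 replicate 1, at 8.58 and 7.48, with 5.01 and 5.04 in Kc. FBtr0070423 read 7.76 and 8.85 in Mbn2 and 5.66 and 5.81 in Kc. A replicate difference over 0.5 was found for 35 members in Mbn2 (13.4%, against 3.82% of all transcripts) and for 21 members in Kc (8.05%, against 6.58% of all transcripts).

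Position was not used by the rule, and it was examined through the identifiers. The table is ordered by identifier number, and 82.6% of consecutive rows have numbers exactly 1 apart. The numbers follow gene order loosely. Among the identified rows, 14 of 14 consecutive pairs with numbers at most 150 apart lay on 1 chromosome in the RefSeq table (Release 6 plus ISO1 MT), against 19 of 29 pairs with numbers farther apart. The row of Ppcdc, a coenzyme A synthesis enzyme, also carries CG42496, and that of Tim10, a chaperone of mitochondrial import, also carries CG42497. These rows have numbers 4 apart, and their nearest genes stand next to each other in that table. The row of Wdr24, a GATOR2 subunit, and the row of CG7950 and Rpp14a have numbers 20 apart, and their nearest genes lie 80 places apart. A consecutive number is thus no proof of a neighbouring gene. Each of the 44 identified rows carried different gene symbols, and no symbol was paired with more than 1 row (0 symbols). Only 17 of the 44 carried a single symbol. With 44 of 15634 rows identified, the lack of repeats cannot show how often rows share a gene. The number of genes in the design text, 15634, equals the number of rows, which gives 1 row per gene if every row stands for a gene. For the unnamed members this could not be checked. Consecutive members may be transcripts of 1 gene, separate neighbouring genes or tandem copies that share probes, and these cannot be told apart from the files.

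Members stood together in identifier order. The row after a member was also a member for 47 of 261 (18.0%), whereas members are 1.67% of all rows. The share was 6.90% for the row 2 places on and 3.83% for the row 3 places on. It was 1.92% at 5 places, 2.68% at 10, 1.53% at 20, 2.69% at 50 and 1.54% at 100. These farther shares lay on both sides of the 1.67% of all rows. A member in the row directly before or after was found for 82 members (31.4%), and for 2.75% of the rows that are not members. Within 10 rows on either side, 142 members (54.4%) had another member, against 23.1% of the other rows having any. Of the 47 pairs of consecutive members, 41 had numbers exactly 1 apart.

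Transcripts of the opposite pattern also stood together. The row after a transcript bright in Kc and dim in Mbn2 was of the same kind for 30 of 193 (15.5%), where that kind makes up 1.23% of all rows. The row after a member was of the opposite kind in 1 of 261 cases (0.383%), and the row 3 places on in 3 (1.15%), too few to set apart from the 1.23% of all rows. The difference between 18.0% and 15.5% was not tested.

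**Figure D3:**
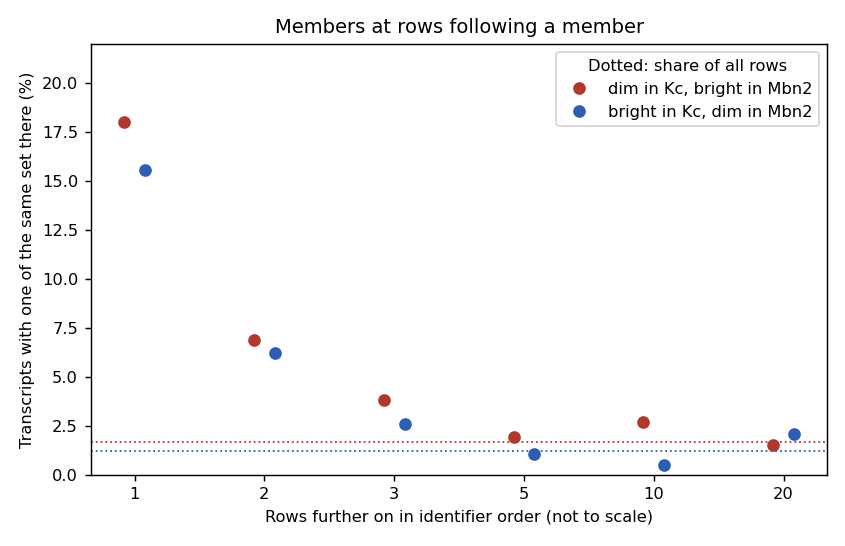
Share of transcripts, in percent, that have one of the same set a given number of rows further on in identifier order, for the 261 dim in Kc and bright in Mbn2 (red) and the 193 of the opposite pattern (blue), with the share of all rows dotted. Both sets are far above the dotted lines at the next row, at 18.0% and 15.5%, and near them from 5 rows on.

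Most members nevertheless stood alone. Of the 261, 179 had no member in an adjoining row, 52 formed 26 pairs, 18 formed 6 runs of 3 and 12 formed 3 runs of 4. The rows were also cut into 79 stretches of 200. Of these, 4 held no member, and 17 (21.5%) held 6 or more, with 123 members (47.1%) between them. The richest stretch, from FBtr0077220 to FBtr0077478, held 12 members and none of the opposite pattern (0), and the other rows in it had a median difference of 0.0016. That stretch includes FBtr0077467, FBtr0077422 and FBtr0077377, which are 3 of the 10 members farthest apart. It is the highest count picked from all 79 stretches. The opposite pattern reached the same count, with 12 of its transcripts and 3 members in the stretch from FBtr0083454 to FBtr0083736.

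The run of 4 from FBtr0081739 to FBtr0081743 held 3 members with nearly equal values. FBtr0081740 read 12.81 and 12.98 in Mbn2 and 5.07 and 5.16 in Kc. FBtr0081741 read 12.75 and 12.86 in Mbn2 and 5.01 and 4.996 in Kc. FBtr0081743 read 12.82 and 12.95 in Mbn2 and 5.43 and 5.19 in Kc. The differences of these 3, between 7.58 and 7.81 log2 units, nearly coincided. The first of the run, FBtr0081739, read 8.73 and 8.88 in Mbn2 and 4.94 and 5.13 in Kc, with a difference of 3.77. The rows directly on either side, both dim in both lines, did not pass the test. FBtr0081738 differed by 0.01 (limma adjusted p = 0.959) and FBtr0081744 by -0.05 (limma adjusted p = 0.840). Beyond the latter, FBtr0081745 was higher in Mbn2 by 1.58 (limma adjusted p = 0.000157). Beyond the former, FBtr0081737 was lower in Mbn2 by a difference of -0.41 (limma adjusted p = 0.0197).

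In the run from FBtr0076525 to FBtr0076530, differences ran from 4.26 to 8.30. FBtr0076527 read 12.22 and 12.65 in Mbn2 and 5.13 and 4.86 in Kc. FBtr0076529 read 11.84 and 11.74 in Mbn2 and 5.86 and 5.42 in Kc. FBtr0076530 read 10.34 and 9.91 in Mbn2 and 6.11 and 5.62 in Kc. The last of these was the one member of the run with a Kc array above 6. FBtr0076523 was a further member 2 rows before the run, at 8.44 and 8.49 in Mbn2 and 5.25 and 5.19 in Kc. The row directly after the run, FBtr0076531, went the other way, at 10.64 and 10.77 in Mbn2 and 12.06 and 12.08 in Kc, lower in Mbn2 by a difference of -1.37 (limma adjusted p = 0.000248).

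The run from FBtr0077377 to FBtr0077380 had differences from 4.27 to 7.95. FBtr0077378 read 11.56 and 11.57 in Mbn2 and 5.25 and 5.33 in Kc. FBtr0077379 read 11.09 and 10.98 in Mbn2 and 5.22 and 5.70 in Kc. FBtr0077380 read 10.25 and 9.62 in Mbn2 and 5.48 and 5.85 in Kc. The rows before this run were also higher in Mbn2 without being members. FBtr0077375 read 7.63 and 7.73 in Mbn2 and 4.45 and 4.52 in Kc (difference 3.19, limma adjusted p = 1.02e-05), short of the Mbn2 limit. The 2 rows after it, FBtr0077381 and FBtr0077382, differed by 0.10 and 0.09 and did not pass the test.

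The run from FBtr0089116 to FBtr0089119 held the 2 members already named and, between them, FBtr0089118. FBtr0089118 read 8.80 and 8.98 in Mbn2 and 4.63 and 4.56 in Kc, a difference of 4.29. The row before, FBtr0089115, was higher in Mbn2 at 7.72 and 7.82, with 4.81 and 4.54 in Kc (difference 3.09, limma adjusted p = 2.47e-05). It missed membership only by its Mbn2 level. The row after, FBtr0089120, was dim on all 4 arrays, at 4.92 and 5.002 in Mbn2 and 4.95 and 4.77 in Kc. Beyond these rows, FBtr0089114 and FBtr0089121 were bright in both lines and higher in Mbn2 by 0.76 and 0.99 (limma adjusted p = 0.00213 and 0.000953).

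In the run from FBtr0089490 to FBtr0089492 the differences lay between 4.74 and 5.36. FBtr0089490 read 10.49 and 10.30 in Mbn2 and 5.39 and 5.42 in Kc. FBtr0089491 read 9.74 and 9.65 in Mbn2 and 4.94 and 4.98 in Kc. FBtr0089492 read 10.98 and 10.80 in Mbn2 and 5.60 and 5.45 in Kc. The rows directly beside this run, FBtr0089488 and FBtr0089493, were bright in both lines and did not pass the test, with differences of -0.14 and 0.02. FBtr0089486, which stands 2 rows before the run, was also bright in both lines and higher in Mbn2 by 0.98 (limma adjusted p = 0.000682).

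The run from FBtr0091449 to FBtr0091451 had differences between 4.58 and 5.13. FBtr0091449 read 10.48 and 10.66 in Mbn2 and 6.13 and 5.86 in Kc. FBtr0091450 read 10.04 and 10.19 in Mbn2 and 5.18 and 4.80 in Kc. FBtr0091451 read 9.67 and 9.84 in Mbn2 and 5.06 and 5.01 in Kc. The row before it, FBtr0091448, was kept out by its Kc level, reading 10.10 and 10.31 in Mbn2 and 6.67 and 6.55 in Kc (difference 3.59, limma adjusted p = 1.11e-05). The row after it, FBtr0091452, was dim in both lines and did not pass the test, at -0.07 (limma adjusted p = 0.721), and the next, FBtr0091456, was lower in Mbn2 by a difference of -0.89 (limma adjusted p = 0.0118).

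The remaining 3 runs of 3 fall outside the rule for named transcripts and were chosen after their values were seen. FBtr0083367, FBtr0083368 and FBtr0083369 had differences of 4.31, 4.21 and 4.31 and were the most alike of any run of 3. FBtr0083371, which stands 2 rows after them, was bright in both lines and still higher in Mbn2, at 14.13 and 13.95, with 9.19 and 9.11 in Kc (difference 4.89, limma adjusted p = 4.22e-06). The run from FBtr0070659 to FBtr0070661 had differences of 2.99 to 4.42, and the next 2 rows were higher in Mbn2 by 2.10 and 2.61 without being members (limma adjusted p = 0.00129 and 3.86e-05). The run from FBtr0080617 to FBtr0080619 had differences of 2.32 to 4.37, and the rows on either side, FBtr0080616 and FBtr0080621, were higher in Mbn2 by 1.95 and 1.40 (limma adjusted p = 0.00147 and 0.00272).

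**Figure D4:**
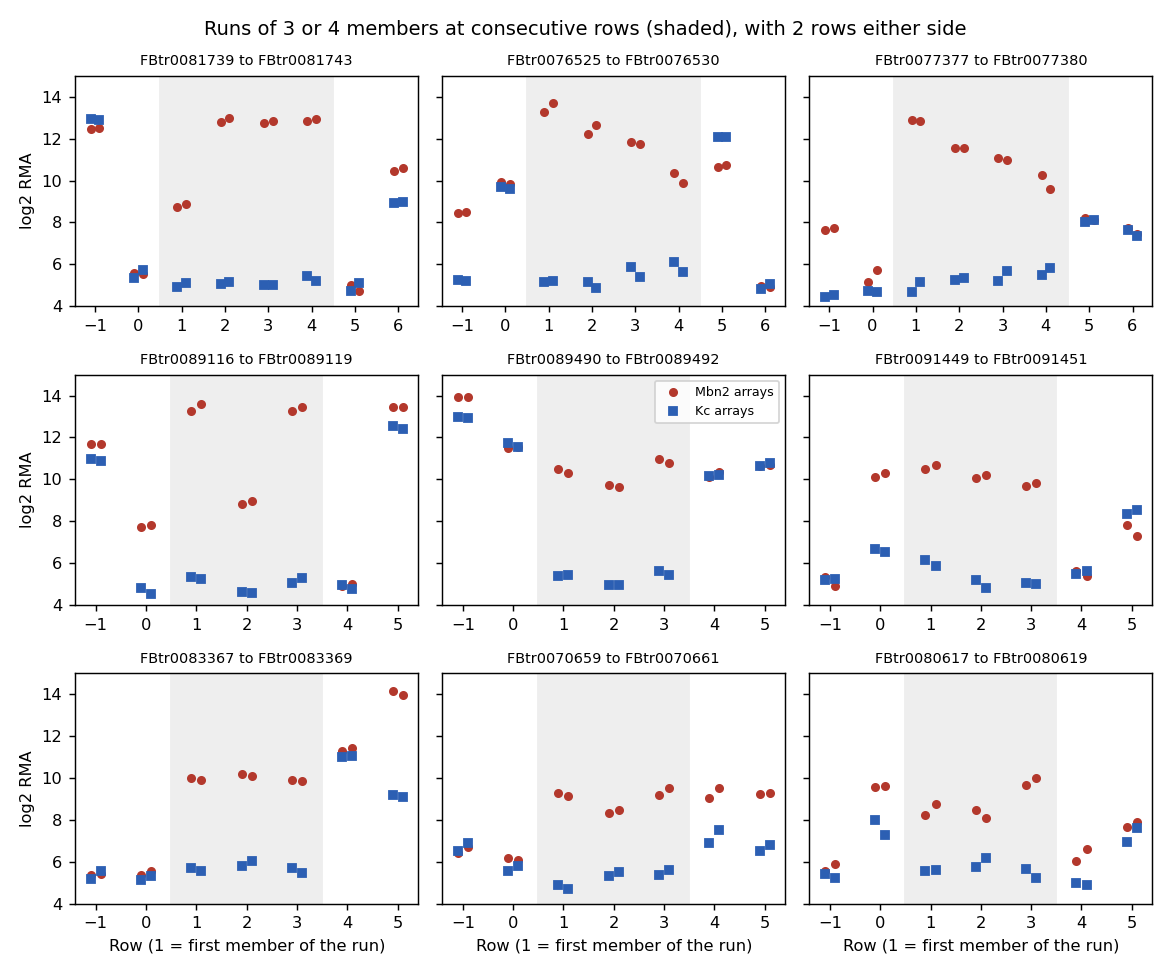
Log2 RMA value on each array, by row, for the 9 runs of 3 or 4 consecutive members (shaded) and 2 rows on either side, with Mbn2 arrays as red circles and Kc arrays as blue squares. Inside the shading the colours are apart in every row, as the rule requires. In the directly adjoining rows they meet on both sides of some runs, such as FBtr0089490 to FBtr0089492. They stay apart in the 2 rows after others, such as FBtr0070659 to FBtr0070661.

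The 26 pairs of members ranged from near equality to wide disagreement in their differences. In 9 pairs the 2 differences lay within 0.5 of each other, and in 6 they were over 2 apart. The pair FBtr0081618 and FBtr0081619, chosen after its values were seen, had differences of 5.99 and 5.97. At the other end FBtr0077467, with a difference of 8.77, adjoined FBtr0077466, which read 9.06 and 9.03 in Mbn2 and 4.83 and 5.18 in Kc, a difference of 4.04. FBtr0077422, with a difference of 8.01, adjoined FBtr0077423, with one of 3.37. Over all 47 pairs of consecutive members, the 2 differences lay 0.91 apart at the median, against 1.40 over all pairs of members. Over all consecutive rows of the table they lay 0.46 apart, and over rows 100 apart 0.67.

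Single rows enclosed by members on both sides were few, and they did not all follow them. There were 6 such rows. FBtr0070646 was higher in Mbn2, at 9.25 and 9.23, with 6.72 and 7.63 in Kc (difference 2.07, limma adjusted p = 0.00232). FBtr0070491 and FBtr0082791 were higher in Mbn2 by 0.40 each (limma adjusted p = 0.0208 and 0.0225). The other 3 did not pass the test. FBtr0076524, between FBtr0076523 and FBtr0076525, was bright in both lines at 9.94 and 9.82 in Mbn2 and 9.71 and 9.61 in Kc (difference 0.22, standard error 0.11, limma adjusted p = 0.152). FBtr0087452 had a difference of -0.37 (limma adjusted p = 0.0588), and FBtr0073940, dim in both lines, one of 0.61 (limma adjusted p = 0.0788).

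The rows beside members were more often higher in Mbn2 than rows elsewhere. These rows were chosen by position and not by their own difference, except that members themselves were left out. Of the 422 rows directly beside a member, limma called 158 (37.4%) towards Mbn2 and 60 (14.2%) towards Kc, at an adjusted p under 0.05. Over all transcripts the shares were 21.2% and 27.0%, and over all rows that are not members they were 19.9% and 27.4%. The median difference of the 422 was 0.16, against -0.05 over the 15373 rows that are not members. A difference over 1 was found for 23.5% of them, against 8.96%, and one under -1 for 5.69%, against 10.4%.

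The lean weakened with distance. At 2 rows from a member 29.2% were called towards Mbn2 and 21.1% towards Kc, at 3 rows 23.7% and 22.3%, and at 20 rows 22.4% and 29.4%. The median difference was 0.06 at 2 rows, 0.02 at 3 rows and -0.04 at 20 rows. It was not limited to rows beside runs: of the 353 rows beside lone members 36.5% were higher in Mbn2, and of the 70 beside pairs and longer runs 41.4%. Rows beside transcripts of the opposite pattern leaned the opposite way. Of those 322 rows, 9.32% were called towards Mbn2 and 46.6% towards Kc.

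**Figure D5:**
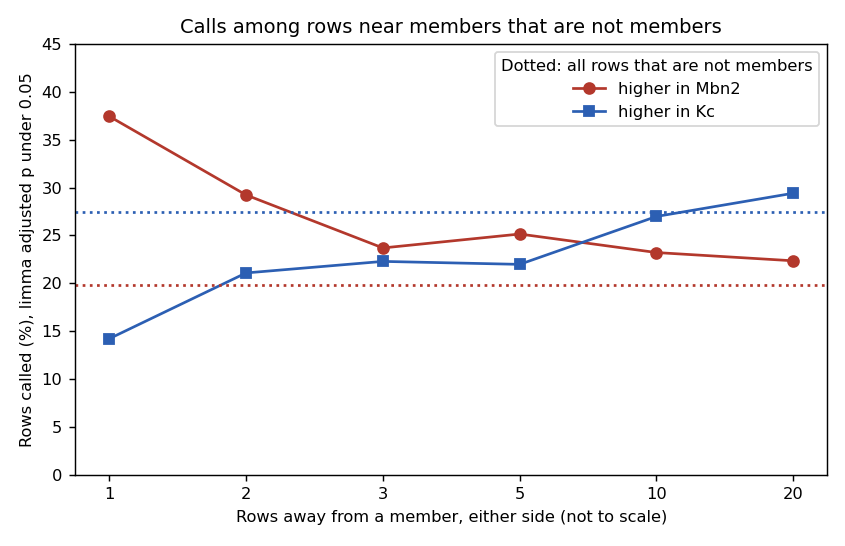
Share of rows near members, themselves not members, that were called higher in Mbn2 (red circles) or higher in Kc (blue squares) by limma, by distance in rows, with the shares over all rows that are not members dotted. Directly beside members the shares were 37.4% towards Mbn2 and 14.2% towards Kc, and the lines cross between 5 and 10 rows.

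The lean was present among dim and among bright rows. Of the 422 rows, 152 were dim in both lines, and 21 of these (13.8%) were called towards Mbn2 and 1 towards Kc, where the shares over all 4586 such rows were 4.82% and 4.80%. Of the 129 over 9 in both lines, 35.7% were called towards Mbn2 and 25.6% towards Kc, against 24.3% and 34.9% of all 6698 such rows. Rows between the limits in at least 1 line made up 26.3% of the rows beside members and 18.9% of all rows that are not members. The opposite pattern was held by 2 of the 422 (0.474%), and by 1.26% of all rows that are not members.

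Several rows beside members narrowly missed the rule while differing widely. They were taken as those with the largest difference among rows beside members, after the values were seen. FBtr0086985 read 13.61 and 13.36 in Mbn2 and 6.07 and 6.09 in Kc (difference 7.41, standard error 0.12, limma adjusted p = 2.88e-06). FBtr0084471 read 13.13 and 12.94 in Mbn2 and 6.39 and 6.10 in Kc (difference 6.79, limma adjusted p = 3.68e-06). FBtr0081620, the row after the pair FBtr0081618 and FBtr0081619, read 12.14 and 12.39 in Mbn2 and 6.31 and 6.23 in Kc (difference 5.99, limma adjusted p = 3.68e-06). Its difference lay within 0.03 of those of the pair, and only its Kc level, above 6, kept it out.

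The identified rows nearest to members showed no shared direction. FBtr0074992 (difference 3.05) adjoined the row of Mettl5, an rRNA adenosine methyltransferase, and CG42374, which was lower in Mbn2 by a difference of -0.74 (limma adjusted p = 0.00197). FBtr0082877 (4.22) stood 2 rows from rdx, a Cullin-3 substrate adaptor, which was higher in Mbn2 by 0.82 (limma adjusted p = 0.00169). FBtr0076199 (6.14) stood 2 rows from SuUR, a suppressor of replication in heterochromatin, at -0.27 (limma adjusted p = 0.0864), and FBtr0100408 (3.04) stood 2 rows from Dyrk3, a protein kinase gene, at -0.37 (limma adjusted p = 0.130). Of 136 genes in 16 lists (blood cell, fat body, muscle and neural markers, immune pathways and others), 2 had an identified row and neither was a member. Fatp1, a fatty acid transport protein, read 11.85 and 11.77 in Mbn2 and 10.58 and 10.43 in Kc (difference 1.31, limma adjusted p = 0.000362). LanA, a laminin chain of the basement membrane, read 14.74 and 14.84 in Mbn2 and 14.93 and 14.80 in Kc (difference -0.07, limma adjusted p = 0.638).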

How the data were processed

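The 4 arrays were taken as 2 Mbn2 and 2 Kc samples. The authors deposited log2 expression values, made with RMA per the submitters' processing notes. Neither the settings of RMA nor the annotation or genome build behind the identifiers was stated in the labels or files. Per the series' design text, duplicate sets of 12 probes, each 60 nucleotides long, stand for each of 15634 genes. The number of arrays, 4, limits the precision. Lines were set against each other by limma (version 3.58.1, run in R 4.3.3) with lmFit and eBayes as a two-sided test, without covariate or further normalization. Benjamini-Hochberg adjustment covered all 15634 rows, and the script was tested on simulated data. Members, limits and gene lists were chosen with earlier results of these data known. Members were included in the limma fit, but nothing is read from their p-values, because their line difference chose them. Positions are described by shares beside those of all rows. Named transcripts are the 10 with the largest difference, the 5 highest in Mbn2, the 6 longest runs (ties by median difference), the 5 with the largest replicate difference, those at the limits and identified list genes. Other named rows were chosen after their values were seen. Alternatives covered the limits, the normalization, the variance model, a block on replicate number and leaving out each array. Deviations of same-numbered samples from their line means correlated at r = -0.05 over transcripts, so the numbers were not taken as pairs.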

Additional observations from a re-analysis of the deposited data

How the results depend on the processing

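The number of members depended on the limits: 102 at limits of 5.5 and 9, 407 at 6.5 and 7.5, and 40 with rows below the median left out, a filter that removes rows with a low mean. Leaving out single arrays gave 256 to 267, and a second quantile normalization 259. The share of members followed by a member was 10.8% at limits of 5.5 and 9, where members are 0.652% of all rows, 20.9% at 6.5 and 7.5, where they are 2.60%, and 15.97% to 19.1% without single arrays. Counted by identifier number, the next member lay within 5 for 23.4% of members and 5.30% of all rows, and within 10 for 28.7% and 9.82%. The median difference of members was 4.35 after a second quantile normalization, 3.93 with log2(2^value + 16), 4.48 centred on rows over 9 in both lines, and 4.35 to 4.45 without single arrays. That centring subtracts the median of the 6698 rows over 9 in both lines, -0.11. Without moderation of the variances, limma called 1768 rows towards Mbn2 and 2134 towards Kc, and among rows beside members 95 and 33. With single arrays left out, the lone array being assumed to vary like the others, 133 to 149 and 47 to 56 rows beside members were called. With the replicate block, whose numbers do not pair the samples, 3171 and 3963 rows were called, 151 and 57 of them beside members. The median difference of rows near members was 0.019 at 3 rows, 0.018 at 5 rows, 0.00062 at 10 rows and -0.039 at 20 rows, the one value below 0 among the settings run; without single arrays it was 0.15 to 0.23 directly beside members. Of 336 values of 42 named members under these alternatives, 40 moved by more than the replicate spread, 33 of them with log2(2^value + 16), and 0 changed sign, as the rule ensures. Dim values are limited by an unknown floor.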
